A study of Mus musculus with 21 samples.

Results

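The genes described here encode the calcium release unit of the sarcoplasmic reticulum, the internal calcium store of a heart muscle cell. The set holds 10 genes: Ryr2, Trdn, Asph, Casq2, Casq1, Hrc, Jph1, Jph2, Fkbp1b and Tmem38a. A gene was measured by the probe set annotated to it alone, and where there were several, by the one with the highest mean over all arrays. By this rule 9 of the 10 genes had a value, out of 19937 genes with such a probe set. The only Tmem38a probe set was annotated to several genes, so Tmem38a, which encodes a potassium channel of the reticulum membrane, has no value here. Of the 9 genes, 8 reached a log2 level of 5 on at least 3 arrays and were tested among 11384 genes that did so.

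In each heartbeat, calcium that enters through voltage-gated channels of the cell membrane opens ryanodine receptors in the facing membrane of the reticulum, and the store releases its calcium. Junctophilins hold the membranes close together. Inside the store, calsequestrin and the histidine-rich calcium binding protein buffer calcium, and triadin and junctin tie calsequestrin to the receptor. Inherited variants of RYR2, CASQ2 and TRDN are known causes of stress-induced ventricular arrhythmia in people.

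Total RNA of the left ventricle was measured on 21 Affymetrix arrays from mice aged 9 to 13 weeks. Tg(αMHC-MerCreMer) mice, called MerCreMer below, carry a Cre recombinase that tamoxifen activates, driven in heart muscle cells by the αMHC promoter. Mice were given 40 mg/kg tamoxifen, or a control injection whose content the labels do not name, into the peritoneal cavity on 1 day or on 4 days in a row. Hearts were taken 4 days later. The groups were MerCreMer with 1 control injection (n = 3), 1 tamoxifen (n = 3), 4 control (n = 3) and 4 tamoxifen (n = 3), and wild type with 4 control (n = 6) and 4 tamoxifen injections (n = 3). The wild-type control group held 3 males and 3 females, and every other group held 1 male and 2 females. No floxed allele is named in the labels.

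The array medians lay between 4.57 and 4.72 log2 units. All 16 cardiomyocyte markers stayed above 5 on every array, with Actc1, the most abundant, between 12.85 and 12.99. The MerCreMer 4 tamoxifen arrays stood apart. Their residual variance over all tested genes was 0.106, against 0.0153 to 0.0221 in the other groups. Their pairwise correlations ran from 0.918 to 0.974, against a lowest value of 0.982 elsewhere. Macrophage markers rose on these arrays: 15 of 15 were called higher, with a summed linear level of 2303 to 6454 against 1729 to 1793 in MerCreMer 4 control. One of them, Cd14, had a mean of 4.68 and may have reached the level for testing only through arrays where it was high. Summed cardiomyocyte markers were 52980 to 69430 against 68590 to 68900, with 3 of 16 called lower. In the same comparison 23.3% of all tested genes were called in either direction and 9.41% were called lower.

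Promoter windows from RefSeq (build GRCm38.p6) existed for 7 of the 10 genes. They cover the 250 bases before the annotated start, written 5′ to 3′ on the gene's own strand. Of the 2 annotated starts of Jph2, the most upstream was used. Ryr2 and Jph2 are shown because their transcripts fell after 4 tamoxifen injections, and Casq2 because its did not pass the test. Capitals mark matches to the motifs searched on both strands: the E-box CANNTG, the TATA box TATAAA, the GATA motif AGATAA, the MCAT motif CATTCC, the MEF2-like motifs (CTA, any 4 bases, then TAG or TAA), and the oestrogen response element (GGTCA, any 3 bases, then TGACC).
Ryr2, chr13:12106946-12107195, minus strand: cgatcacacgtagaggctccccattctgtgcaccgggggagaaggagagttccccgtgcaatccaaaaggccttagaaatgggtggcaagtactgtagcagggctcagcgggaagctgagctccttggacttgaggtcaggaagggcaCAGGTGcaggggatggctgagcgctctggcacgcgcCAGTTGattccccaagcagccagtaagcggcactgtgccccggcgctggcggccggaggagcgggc
Jph2, chr2:163397994-163398243, minus strand: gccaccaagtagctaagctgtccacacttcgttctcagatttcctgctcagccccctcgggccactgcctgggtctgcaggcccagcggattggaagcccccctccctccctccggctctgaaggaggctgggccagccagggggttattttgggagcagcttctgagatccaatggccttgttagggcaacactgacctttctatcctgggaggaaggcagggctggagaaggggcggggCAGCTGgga
Casq2, chr3:102086165-102086414, plus strand: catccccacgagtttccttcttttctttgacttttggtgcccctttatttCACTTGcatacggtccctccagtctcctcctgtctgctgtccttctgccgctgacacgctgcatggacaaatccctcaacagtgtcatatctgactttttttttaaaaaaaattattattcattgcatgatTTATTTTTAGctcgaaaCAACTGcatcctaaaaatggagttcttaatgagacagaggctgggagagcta
The Ryr2 window held an E-box CAGGTG 102 to 97 bases before the start and an E-box CAGTTG 66 to 61 bases before it. The Jph2 window held an E-box CAGCTG 9 to 4 bases before the start. In the Casq2 window lay E-boxes CACTTG, 200 to 195 bases before the start, and CAACTG, 52 to 47 bases before it. It also held a match to the MEF2-like motif ending in TAA on the opposite strand, read as TTATTTTTAG, 69 to 60 bases before the start. E-boxes were present in 66.2% of all 32851 windows of this length and the MEF2-like motif ending in TAA in 7.21%. The other shares were 12.4% for TATAAA, 9.99% for AGATAA, 12.6% for CATTCC, 3.2% for the MEF2-like motif ending in TAG and 0.0639% for the oestrogen response element. No window of these 3 genes held one of those 5 motifs. The Casq1 and Hrc windows also held E-boxes, the Tmem38a window held an MCAT match, and the Fkbp1b window held none of the 7 motifs. The Ryr2 and Jph2 windows were 63.2% and 62.0% G and C, the Casq2 window 41.6%, and the median over all windows was 52.4%. A match is a description of the letters and not evidence of binding.

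The first comparison asked what 4 tamoxifen injections did where the Cre was present. Transcripts of the channel Ryr2, of its partner Trdn, of Asph and of both junctophilins were lower on every MerCreMer 4 tamoxifen array than on any MerCreMer 4 control array. The largest change was that of Trdn, to 31.1% of the control level, followed by Ryr2 at 39.5%. Among the calcium buffers, Casq2, Casq1 and Hrc were not called. In all, 5 of the 8 tested genes fell and 0 rose at an adjusted p under 0.05 (limma, Benjamini-Hochberg over 11384 genes). Among all tested genes, 23.3% were called and 9.41% were called lower. The median change of the 8 genes was -0.48 log2 units, and that of all tested genes 0.014. In whole-ventricle RNA, fewer cells of a type and less RNA per cell cannot be told apart.

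**Figure D1:**
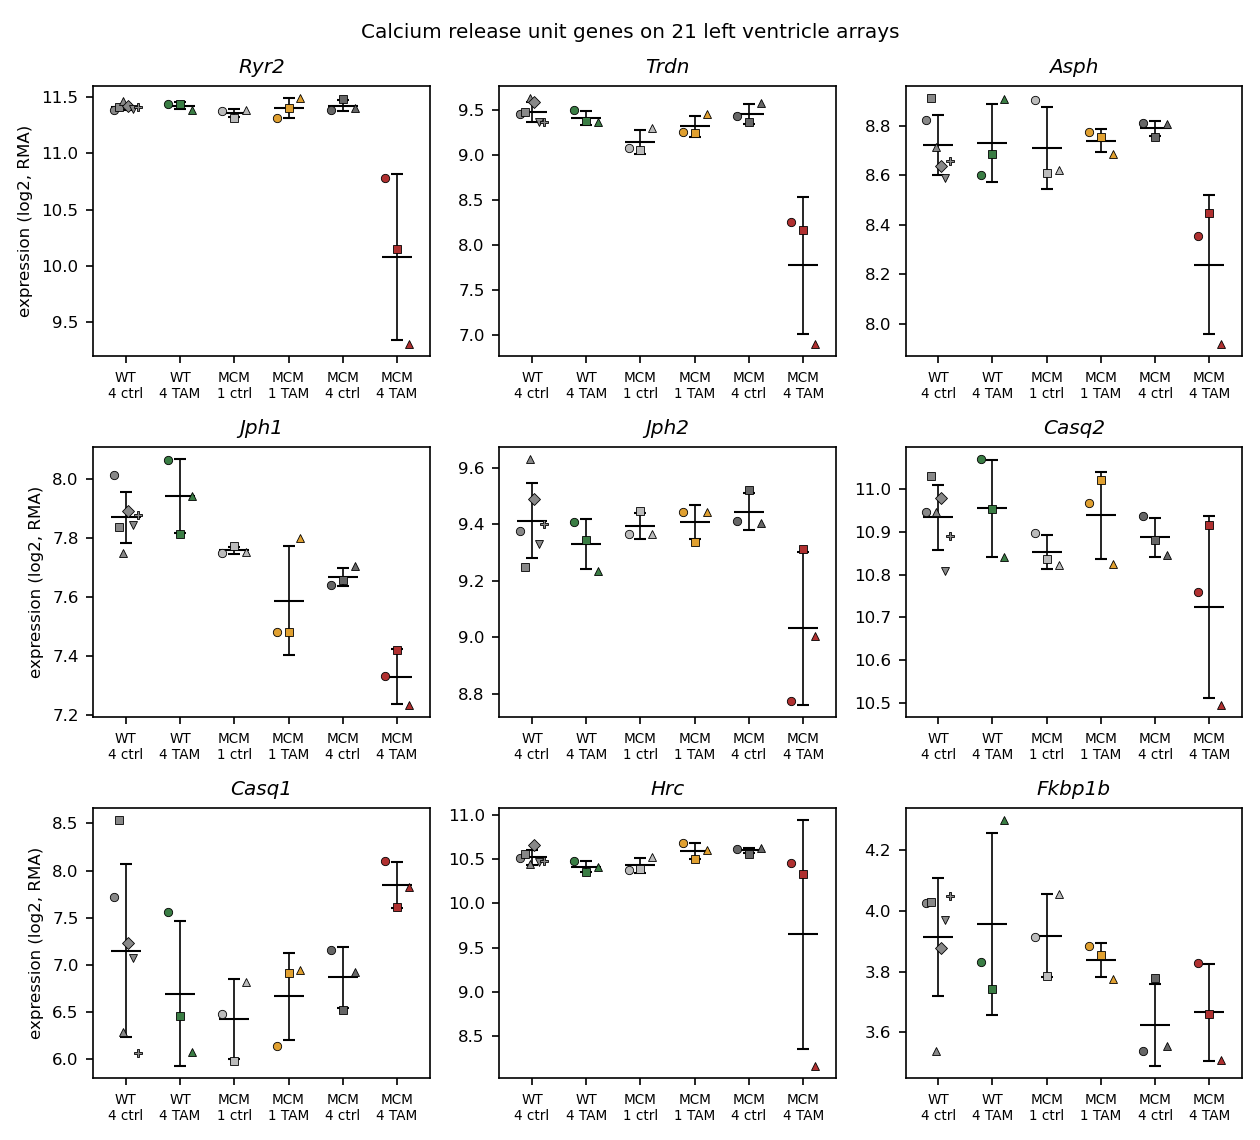
Log2 expression of the 9 measured genes on each of the 21 arrays, by group (WT, wild type; MCM, MerCreMer; 1 or 4 injection days; ctrl, control; TAM, tamoxifen). Marker shapes give the replicate number, horizontal lines the group mean and error bars 1 SD (n = 3, or 6 for WT 4 ctrl); the MCM 4 TAM arrays lie below all other arrays for Ryr2, Trdn, Asph and Jph1, and each panel has its own axis, which does not start at 0.

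Ryr2 encodes the cardiac ryanodine receptor, the release channel itself. Its log2 level was 10.78, 10.15 and 9.31 on MerCreMer 4 tamoxifen replicates 1, 2 and 3, and 11.39, 11.48 and 11.40 on the MerCreMer 4 control arrays. All 3 tamoxifen arrays were below every one of the other 18 arrays, and replicate 3 was the lowest. The group means were 10.08 ± 0.739 and 11.42 ± 0.0502 (SD, n = 3 each). The change was -1.34 log2 units (SE 0.202, 95% interval -1.77 to -0.92, adjusted p = 0.000184 by limma). The SD among the tamoxifen arrays was far larger than among the controls, but the difference of the means exceeded that SD. The SE and the interval rest on a spread shared by all 6 groups, and understate that of the tamoxifen arrays.

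Triadin, the product of Trdn, is a membrane protein that binds the receptor and calsequestrin. Its level was 8.26, 8.17 and 6.90 on the MerCreMer 4 tamoxifen arrays and 9.43, 9.36 and 9.58 on the 4 control arrays. Again the tamoxifen arrays were below all 18 others, replicate 3 by the most. The means were 7.77 ± 0.763 and 9.46 ± 0.111 (SD, n = 3 each). Trdn fell by 1.68 log2 units (SE 0.222, 95% interval -2.15 to -1.22, adjusted p = 5.2e-05 by limma). Ranked from the most negative change, it stood 21st of 11384 genes and Ryr2 stood 51st.

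The array carried 19 probe sets annotated to Trdn alone, and 15 of them reached the level for testing. The log2 change was negative on all 15, from -2.14 to -1.19 with a median of -1.71, and for each the tamoxifen and control arrays did not overlap. All 15 were called lower, with adjusted p between 6.54e-08 and 0.0258 (limma over 12463 single-gene probe sets, of which 10.1% were called lower). These probe sets read 1 gene in the same RNA and are not independent replicates. The order of the arrays was not shared by them all: on the probe set used for Trdn, replicate 3 had a much larger deviation, -2.56, than replicates 1 and 2, at -1.20 and -1.29. Replicate 3 was the lowest on 7 of the 15 and replicate 2 on the other 8. After 1 injection 0 of the 15 were called (median change 0.0465), and in wild type 0 of the 15 (median -0.00165).

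**Figure D2:**
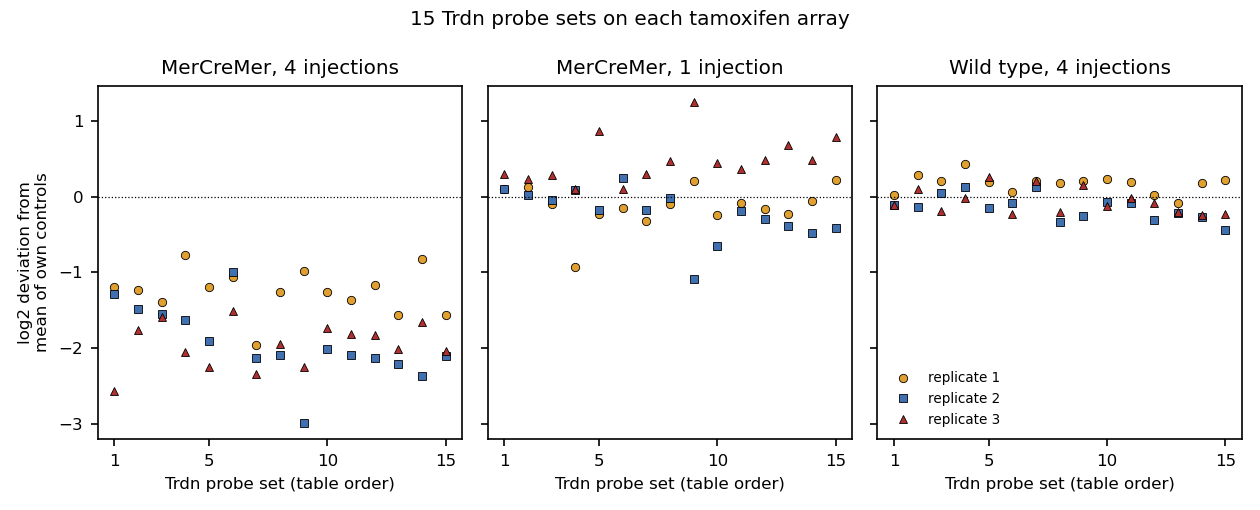
Log2 deviation of each of the 15 tested Trdn probe sets (x axis, in table order) from the mean of the matching control arrays, on the 3 tamoxifen arrays of each group. Every point of the MerCreMer 4 injection panel is below 0, while points of the other panels lie on both sides of it.

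Asph encodes aspartyl beta-hydroxylase and, through other transcripts, junctin and junctate, and a single probe set cannot separate these products. Asph measured 8.35, 8.45 and 7.92 on the MerCreMer 4 tamoxifen arrays and 8.81, 8.75 and 8.81 on the controls. The 3 tamoxifen arrays were below all 18 others. The change was -0.55 (SE 0.115, 95% interval -0.79 to -0.31, adjusted p = 0.00273 by limma), or 68.3% of the control level. Means were 8.24 ± 0.282 and 8.79 ± 0.0317 (SD, n = 3 each).

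Jph2 encodes the main junctophilin of heart muscle and Jph1 the form known mostly from skeletal muscle. Jph2 levels were 8.77, 9.31 and 9.01 on the MerCreMer 4 tamoxifen arrays and 9.41, 9.52 and 9.40 on the controls. The groups did not overlap, and here replicate 1 was the lowest. The highest tamoxifen array, at 9.31, lay within the range of the wild-type controls, 9.25 to 9.63. Jph2 fell by 0.41 log2 units to 75.1% of the control level (SE 0.110, 95% interval -0.64 to -0.18, adjusted p = 0.0129 by limma). Its second single-gene probe set gave -0.42 (adjusted p = 0.00887).

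Jph1 measured 7.33, 7.42 and 7.23 on the MerCreMer 4 tamoxifen arrays and 7.64, 7.66 and 7.70 on the controls. All 3 values were below those of the other 18 arrays, although the gap to the nearest of them, a MerCreMer 1 tamoxifen array at 7.48, was small. The change was -0.34 (SE 0.0909, 95% interval -0.53 to -0.15, adjusted p = 0.0131 by limma), or 79.1% of the control level. A second probe set of the gene gave -0.45 (adjusted p = 0.00711).

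Casq2 encodes the cardiac form of calsequestrin, the most abundant calcium-binding protein of the store. Its level was 10.76, 10.92 and 10.49 on the MerCreMer 4 tamoxifen arrays and 10.94, 10.88 and 10.85 on the controls. The groups overlapped, with replicate 2 inside the control range and replicate 3 below all other arrays. The change of -0.16 (SE 0.0879, 95% interval -0.35 to 0.02) was not called (adjusted p = 0.186 by limma), and the interval ends well short of the changes of Ryr2 and Trdn. Single arrays decided this value: without tamoxifen replicate 2 the change was -0.28 and was called (adjusted p = 0.0125), and without tamoxifen replicate 3 it was -0.06 (adjusted p = 0.667).

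Hrc encodes the histidine-rich calcium binding protein, which binds triadin and the calcium pump. Its level was 10.46, 10.33 and 8.16 on the MerCreMer 4 tamoxifen arrays and 10.61, 10.56 and 10.62 on the controls. All tamoxifen values were lower than these controls. Replicate 1 lay within the range of the other groups, whose lowest array read 10.35, replicate 2 just below it and replicate 3 far below. The change was -0.95 (SE 0.350, adjusted p = 0.0572 by limma) and was not called. Replicate 3 decided this value: without it the change was -0.21 (adjusted p = 0.0795). Without replicate 1 or replicate 2 it was -1.35 or -1.33 and was called (adjusted p = 0.00987 and 0.00763).

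Casq1, the calsequestrin known mostly from skeletal muscle, was the gene of the set with the highest change. Its level was 8.10, 7.61 and 7.83 on the MerCreMer 4 tamoxifen arrays and 7.16, 6.52 and 6.93 on the controls. These groups did not overlap, but the wild-type controls ranged from 6.06 through a median of 7.16 to 8.53 and enclosed them both. The change of 0.98 (SE 0.459, 95% interval 0.01 to 1.94) was not called (adjusted p = 0.130 by limma). Of 20 listed markers of skeletal muscle, 9 were tested: Tnnt1 (3.03), Tnnt3 (1.84), Mybpc2 (1.75) and Myoz1 (0.92) were called higher, Cacna1s (-0.75) was called lower and 4 were not called. The other 11, among them the fast myosins Myh1, Myh2 and Myh4 and the regulators Myod1 and Myog, stayed below 5 on all 21 arrays. Of all tested genes, 23.3% were called in either direction and 9.41% were called lower. Myoz1 had a mean of 4.62 and a highest level of 5.44. It may have reached the level for testing only through arrays where it was high. The summed linear level of the 20 was 1258 to 2355 on the MerCreMer 4 tamoxifen arrays and 634.7 to 650.0 on their controls. Tnnt1 and Mybpc2, with highest log2 levels of 10.45 and 8.74, weigh most in this sum. The part of skeletal muscle transcripts in the Casq1 value was not tested.

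Fkbp1b encodes FKBP12.6, a small protein that binds the receptor and stabilises its closed state. Its level lay between 3.51 and 4.30 on all 21 arrays, below the minimum for testing. With no filter on low values the change after 4 tamoxifen injections in MerCreMer mice was 0.04 (SE 0.144, adjusted p = 0.903 by limma). At this level the array may not resolve a change of Fkbp1b.

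Counted by overlap rather than by the test, 6 of the 8 tested genes had MerCreMer 4 tamoxifen arrays that were all below the controls, and 1 gene, Casq1, had them all above. Over all tested genes, 11.3% did not overlap downwards and 16.6% upwards. The tests used a spread shared by all groups. Over all tested genes the MerCreMer 4 tamoxifen arrays varied more than the others (residual variance 0.106 against 0.0153 to 0.0221). Standard errors, intervals and p values from the shared spread can therefore be too small or too narrow where that group enters. In comparisons without that group they can be too large or too wide, so a gene not called there may still differ. When only the 6 arrays of the 2 groups were fitted, 0 of the 8 genes were called, with adjusted p of 0.142 for Trdn, 0.163 for Ryr2, 0.241 for Asph, 0.275 for Jph1 and 0.284 for Jph2, and 18 of 11384 genes were called in all. The changes themselves were the same in that fit.

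The deviations on single arrays showed that the genes did not move as 1 block. From the mean of the MerCreMer 4 controls, Ryr2 deviated by -0.64, -1.27 and -2.11 on tamoxifen replicates 1, 2 and 3. Hrc deviated by -0.14, -0.27 and -2.44, and Jph2 by -0.67, -0.13 and -0.44. Replicate 3 was the lowest for Ryr2, Trdn, Asph, Jph1, Casq2 and Hrc, and replicate 1 for Jph2. On the same arrays the median deviation of the macrophage markers was 0.93, 0.36 and 1.86, and that of the cardiomyocyte markers -0.05, 0.02 and -0.43. Replicate 3 was thus the most extreme array for both marker lists. Without replicate 3, Trdn (-1.25), Ryr2 (-0.97), Asph (-0.40), Jph2 (-0.39) and Jph1 (-0.29) were all still called lower. The part of a change in cell make-up in these values was not tested.

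**Figure D3:**
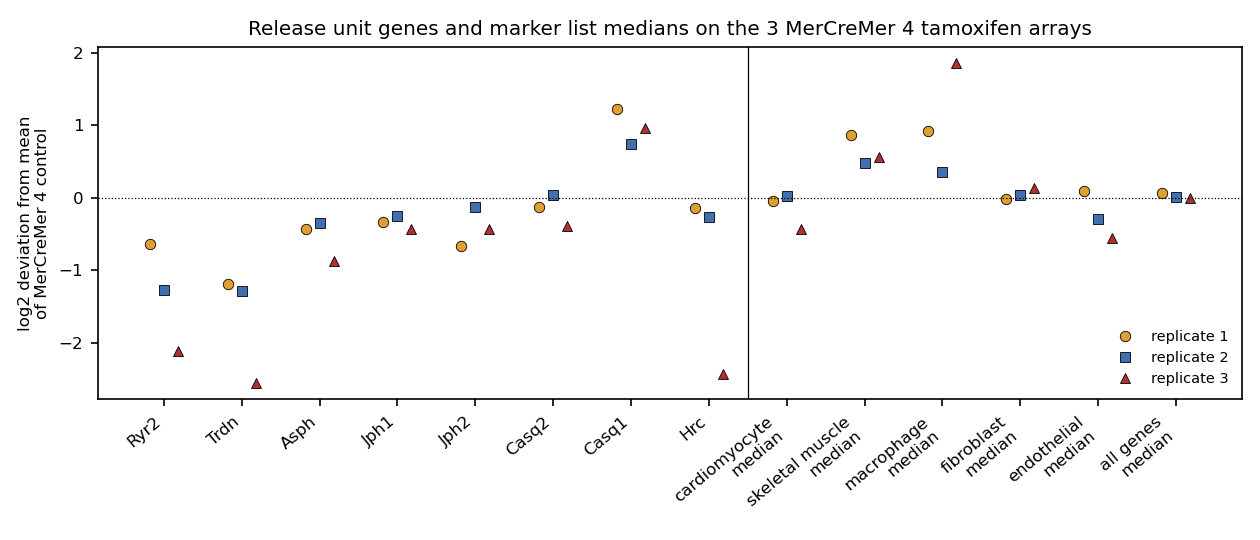
Log2 deviation from the mean of the MerCreMer 4 control arrays on each of the 3 MerCreMer 4 tamoxifen arrays, for the 8 tested genes (left of the line) and for the medians of marker lists and of all tested genes (right). Replicate 3 has the lowest Ryr2, Trdn and Hrc (-2.11, -2.56 and -2.44) and the highest macrophage median (1.86), while the median of all genes stays near 0.

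The next comparison asked the same after a single injection in MerCreMer mice. Of the 8 tested genes, 0 were called, and all 8 had overlapping groups. Over all genes 0.00878% were called, 10.4% had groups that did not overlap, and 380 genes but 0 of these 8 had an unadjusted p under 0.05 in limma. Ryr2 was 11.32, 11.40 and 11.49 with tamoxifen and 11.37, 11.32 and 11.38 with control, a change of 0.04 (SE 0.202, 95% interval -0.38 to 0.47). Trdn was 9.25, 9.25 and 9.45 against 9.08, 9.06 and 9.30, a change of 0.17 (SE 0.222, 95% interval -0.30 to 0.64). Both intervals leave out the falls seen after 4 injections. Jph1 had the most negative change, -0.17 (SE 0.0909, 95% interval -0.36 to 0.02). Its tamoxifen arrays read 7.48, 7.48 and 7.80, the controls 7.75, 7.77 and 7.75, so that replicates 1 and 2 were below the controls and replicate 3 above them.

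In wild-type mice 4 tamoxifen injections tested the drug without the Cre. Again 0 of the 8 genes were called, against 0% of all genes, and all 8 had overlapping groups, where 3.42% of all genes had not. Here 295 genes and 0 of the 8 had an unadjusted p under 0.05 in limma. Ryr2 measured 11.44, 11.44 and 11.38 with tamoxifen, and 11.39 to 11.46 with a median of 11.41 with control. The change was 0.03 (SE 0.176, 95% interval -0.34 to 0.40). For Trdn the tamoxifen arrays read 9.50, 9.37 and 9.37 and the controls 9.36 to 9.63, a change of -0.05 (SE 0.194, 95% interval -0.46 to 0.36). Changes of the other 6 genes ran from -0.39 for Casq1 to 0.07 for Jph1.

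**Figure D4:**
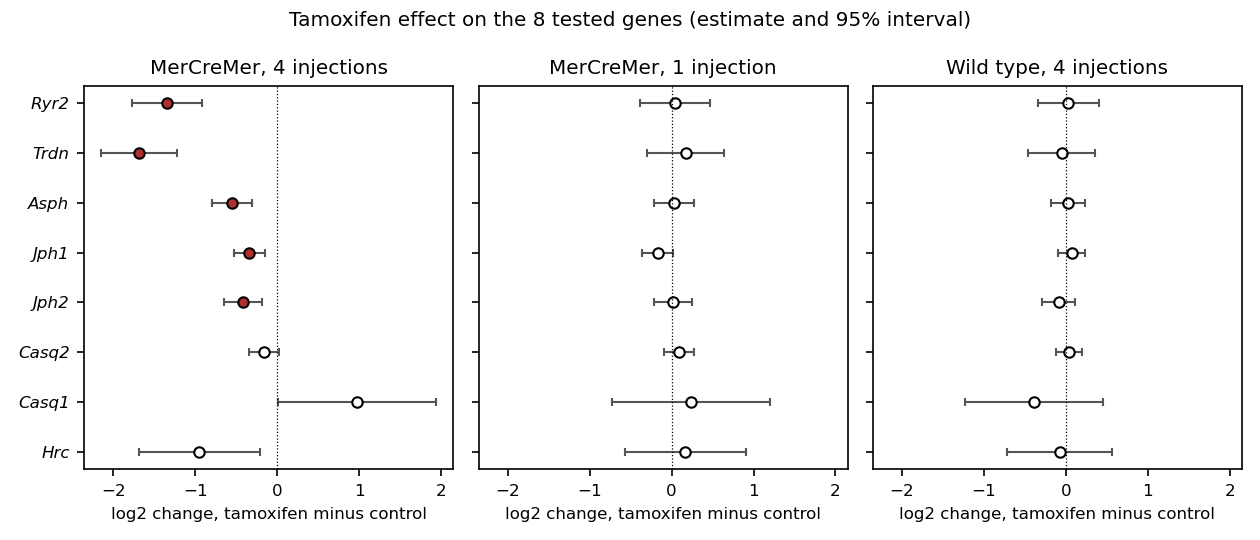
Log2 change, tamoxifen minus control, of the 8 tested genes in MerCreMer mice with 4 injections, MerCreMer mice with 1 injection and wild-type mice with 4 injections. Points are limma estimates with 95% intervals, filled where called at an adjusted p under 0.05; the 5 filled points, all below 0, are in the first panel.

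Whether the tamoxifen effect differed between the genotypes was tested as an interaction. It was more negative in MerCreMer than in wild-type mice for 4 of the 8 genes, where 3.53% of all genes were called in that direction. The difference was -1.63 for Trdn (SE 0.295, adjusted p = 0.00253) and -1.37 for Ryr2 (SE 0.268, adjusted p = 0.00456 by limma). For Asph it was -0.58 (SE 0.153, adjusted p = 0.0269) and for Jph1 -0.41 (SE 0.121, adjusted p = 0.0439). Jph2 differed by -0.32 (95% interval -0.63 to -0.02), Hrc by -0.87, Casq1 by 1.36 and Casq2 by -0.20, and none of these 4 was called (adjusted p = 0.179, 0.256, 0.173 and 0.304). Without MerCreMer 4 tamoxifen replicate 3 the Hrc difference was -0.11. Without MerCreMer 4 tamoxifen replicate 2, the Jph2 difference of -0.47 and the Casq2 difference of -0.32 were called (adjusted p = 0.0185 and 0.0354). Other arrays moved them the other way: Jph2 differed by -0.20 without MerCreMer 4 tamoxifen replicate 1 (adjusted p = 0.326), and Casq2 by -0.09 without replicate 3 (adjusted p = 0.681). The Ryr2 call was kept in 27 of 27 other settings and the Trdn call in 26, but the Asph call in 17 and the Jph1 call in 10.

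The tamoxifen effect in MerCreMer mice was also compared between 4 and 1 injection days. This test shares the MerCreMer 4 arrays with the one before. Trdn (-1.85, SE 0.314, adjusted p = 0.00189), Ryr2 (-1.39, SE 0.286, adjusted p = 0.0079) and Asph (-0.58, SE 0.163, adjusted p = 0.0437 by limma) were called, 3 of the 8 genes, where 3% of all genes were called in that direction. The Asph call was kept in 8 of 25 other settings, and those of Ryr2 and Trdn in 23 each. For Jph1 the difference was -0.17 (95% interval -0.44 to 0.10, adjusted p = 0.449), so its effects after 1 and 4 injections were not told apart. Hrc (-1.12, adjusted p = 0.188) was called without any 1 of the 3 MerCreMer 4 tamoxifen arrays, at -1.51, -1.50 and -0.38.

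Control-injected mice were compared between genotypes to see the transgene alone. Of the 8 genes 0 were called, against 0.676% of all genes. In limma, 1694 genes had an unadjusted p under 0.05, and Jph1 was the only one of the 8. Jph1 was 7.64, 7.66 and 7.70 in MerCreMer controls and 7.75 to 8.01, with a median of 7.86, in wild-type controls. The 3 MerCreMer arrays were below all 6 wild-type arrays, which 4.05% of all genes showed, and the change was -0.20 (SE 0.0792, adjusted p = 0.229). The arrays fall into sets of 13 and 8 that a probe set with no gene entry separates and the labels do not name. The smaller set held 2 of the 3 MerCreMer 4 control arrays and 0 of the 9 wild-type arrays, so genotype and array set ran together in part. With the array set as a block the Jph1 change was -0.21 (SE 0.0927, adjusted p = 0.502), and 7 genes rather than 77 were called in all. Ryr2 (0.03) and Trdn (-0.01) had changes below their standard errors of 0.176 and 0.194. Those errors rest on the shared spread, which the MerCreMer 4 tamoxifen arrays widened. In the 2 groups compared, the SD of Ryr2 was only 0.0502 (MerCreMer) and 0.0261 (wild type).

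Between MerCreMer mice with 4 and with 1 control injection, 0 of the 8 genes were called, against 0% of all genes. Here 375 genes and 0 of the 8 had an unadjusted p under 0.05 in limma. Groups did not overlap for 4 of the 8, against 9.79% of all genes: Trdn (0.31), Hrc (0.17) and Ryr2 (0.06) were higher after 4 control injections and Jph1 (-0.09) was lower. For Trdn the 1-injection controls read 9.08, 9.06 and 9.30 and the 4-injection controls 9.43, 9.36 and 9.58. The Trdn difference between 4 and 1 tamoxifen injections above therefore sets each against its own controls.

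Genes that work beside the release unit were read from 3 lists that leave out the 10 genes. Among proteins that bind or regulate the release unit, 25 of 33 listed genes were tested after 4 tamoxifen injections in MerCreMer mice: 9 fell, 2 rose and 14 were not called. The list's median change was -0.0014, near that of all genes. For this list and those below, 9.41% of all tested genes were called lower and 23.3% were called in either direction. Those with the smallest adjusted p were Camk2d (-1.21, SE 0.0724), which encodes a kinase that phosphorylates the receptor, Akap6 (-1.27, SE 0.108), an anchor for protein kinase A, Ppp1r3a (-1.20, SE 0.154), a subunit that targets protein phosphatase 1, and Ank2 (-0.83, SE 0.165), a membrane scaffold. Calm2, 1 of the calmodulin genes, rose by 0.36 and Sri, which encodes the receptor-binding protein sorcin, by 0.44.

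On the calcium entry list 10 of 18 genes were tested, of which 4 fell and 2 rose. Cacna1c, the pore of the cardiac calcium channel that triggers release, changed by -2.24 (SE 0.0949, adjusted p = 2.16e-11 by limma), a larger fall than that of Ryr2 or Trdn. Cacna2d1 (-1.02) and Cacna1s (-0.75) also fell, and Gem, a small GTPase that inhibits these channels, rose by 1.18. On the calcium removal list 10 of 18 were tested, 3 fell and 0 rose: Slc8a1, the sodium-calcium exchanger (-1.38, SE 0.179), Pln, the pump inhibitor phospholamban (-0.77), and Mcu, the mitochondrial uniporter (-0.26). Atp2a2, the pump that refills the store, had a change of -0.11 and was not called (adjusted p = 0.193). After 1 injection, and in wild type, 0 genes of these 3 lists were called.

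The 3 called genes with the largest falls, Trdn, Ryr2 and Asph, were the 3 longest of the set, though not in the order of their lengths. By RefSeq, Ryr2 spans 554 kb, Trdn 393 kb, Asph 220 kb, Jph1 156 kb, Jph2 61.8 kb and Casq2 60.1 kb, while Casq1 spans 10002 bases and Hrc 3705 bases. Among all 542 tested genes over 200 kb the median change after 4 tamoxifen injections in MerCreMer mice was -0.18, with 33.9% called lower and 2.95% higher. Among 2577 genes of 50 to 200 kb, 10.8% were called lower and 12.9% higher. Of 8247 shorter genes, 7.38% were lower and 15% higher. Ryr2, Trdn and Asph thus lay in the class with the largest share of lower calls. Ryr2 is longer than Trdn, and their changes were -1.34 (SE 0.202) and -1.68 (SE 0.222). Jph1 is longer than Jph2, with changes of -0.34 and -0.41 on the probe sets used and -0.45 and -0.42 on their second ones. These differences between genes were not tested. Hrc, the shortest, had a change of -0.95 that rests on 1 array. Any part of gene length in the changes was not tested.

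**Figure D5:**
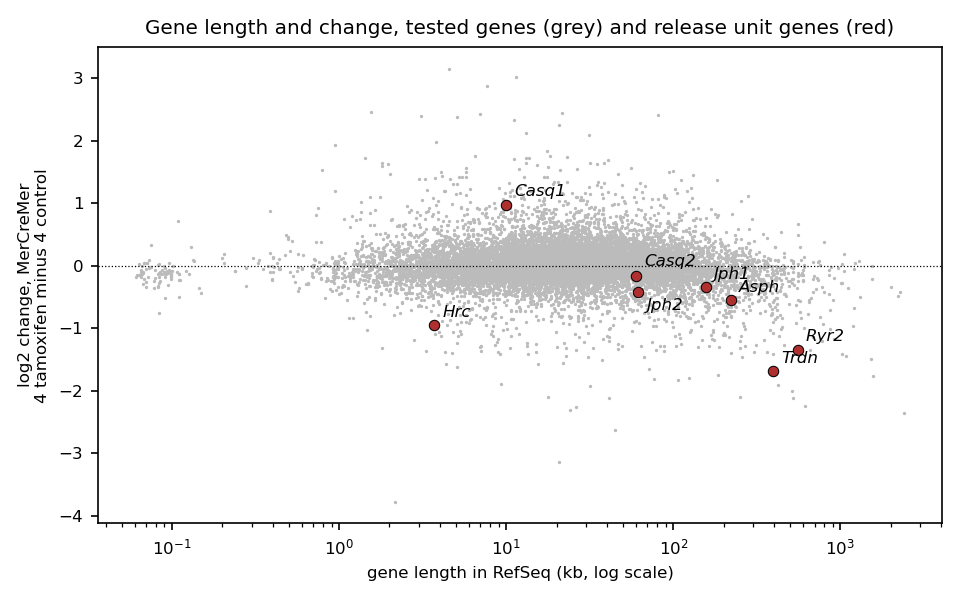
Log2 change after 4 tamoxifen injections in MerCreMer mice against gene length (kb, log axis) for the tested genes with a RefSeq length (grey) and the 8 release unit genes (red, named). Ryr2 (554 kb) and Trdn (393 kb) lie at the lower right with changes of -1.34 and -1.68, and Casq1 lies above 0.

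Over the 21 arrays the levels of Ryr2 and Trdn had a Pearson r of 0.968, and of 0.603 over the 18 arrays without MerCreMer 4 tamoxifen. Over the 21 pairs of the 7 tested genes other than Casq1, the median r was 0.71 on all arrays and 0.11 on the 18, so most of this likeness came from the 3 arrays. These points share the groups and the processing. The tested genes most like Ryr2 were Dmd (r = 0.990), which encodes dystrophin, Ctnna3 (0.983), which encodes a catenin of heart muscle junctions, and Yipf7 (0.980). Those most like Trdn were Yipf7 (0.985), Chchd3 (0.984) and Asb14 (0.976). For Asph they were Adh5 (0.913), Lrrc39 (0.907) and Myzap (0.906). For Jph2 they were Strip2 (0.918), Slain2 (0.907) and Clip1 (0.889), and for Jph1 Cdkal1 (0.888), Nr3c1 (0.887) and Msl2 (0.878), all over 21 arrays.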

How the data were processed

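The authors deposited log2 expression values that RMA produced, per the submitters' processing notes. RMA corrects background, quantile normalises the arrays and summarises each probe set. Its version was not given in the sources used here, nor were batches, and no further scaling was applied. The platform annotation gave 1 gene for 21640 of 34760 probe sets, several for 1321 and no entry for 11799. The 10 genes and all lists were chosen with earlier results of these data known.

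Using lmFit and eBayes of limma 3.58.1 under R 4.3.3, 1 model of the 6 groups plus sex covered all 21 arrays (residual degrees of freedom 14, prior 3.98). Tested genes had a log2 value of at least 5 on at least 3 arrays. Benjamini-Hochberg adjustment ran over these genes, with calls made below 0.05. The fit was tested on simulated data in which all groups had the same spread for a gene. That test could not show what the wider spread of the MerCreMer 4 tamoxifen arrays does to the calls. The labels do not say outright that replicates are separate animals, so p values measure the spread between these samples, and the number of arrays limits their precision.

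Named genes were the 10 members, the 4 called genes with the smallest adjusted p of each pathway list in MerCreMer 4 tamoxifen against 4 control, the 3 genes most correlated with each called member and the most abundant marker of each list. Calm2, Sri, Mcu, Atp2a2 and the skeletal markers were named after their values were seen. Besides Actc1 and Mybpc2, the most abundant markers were Des (smooth muscle, 2 of 9 tested markers higher and 0 lower in that comparison), Gsn (fibroblast, 0 and 2 of 12), Lyz2 (macrophage), Kdr (endothelial, 0 and 3 of 12) and Nppa (atrial and conduction, 0 and 1 of 8). Alternatives were no sex covariate, fits on the compared arrays or female arrays alone, group or array weights, a second quantile normalisation, filters at 6 or none, trend and robust eBayes, the mean of all probe sets, replicate blocks and each array left out.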

Additional observations from a re-analysis of the deposited data

Results flagged for a closer look

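The tamoxifen effect differed between the genotypes, by the interaction test in limma, for Trdn (-1.63), Ryr2 (-1.37), Asph (-0.58) and Jph1 (-0.41), each more negative in MerCreMer than in wild-type mice. It differed between 4 and 1 injections in MerCreMer mice for Trdn (-1.85), Ryr2 (-1.39) and Asph (-0.58). In the wild-type 4 control group, the lowest Fkbp1b array read 3.54 and lay far from the other 5, at 3.88 to 4.05. It was the only one of 9 genes with such an array in that group, and chance alone marks about 1 in 20 groups. All Fkbp1b values were below the minimum for testing.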

How the results depend on the processing

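Members called lower after 4 tamoxifen injections in MerCreMer mice numbered 5. They numbered 0 with only the arrays compared, 3 under array weights, 3 on female arrays alone and 0 within the array set of 8. All genes called numbered 2654, and 18, 1578, 1502 and 236 in those fits, and 958 when groups were weighted by their own variance. That weighting left 4 members called: Jph1 and Jph2 lost their calls (adjusted p = 0.194 and 0.108) and Hrc gained one (0.0456). The array sets, an alternative chosen after seeing the data, are groups of 13 and 8 arrays that a probe set with no gene entry separates. The labels name no such sets. The set of 8 holds no wild-type array and only part of each MerCreMer group, so its fit rested on fewer arrays. The count stayed at 5 with the array set as a block.

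For the interaction with genotype, 4 members were called, and 2 with only the arrays of the groups compared, 2 when groups were weighted by their own variance, 1 on the female arrays alone and 2 under the replicate block. Leaving out 1 array gave 2 to 6. For the interaction with injection days, 3 were called, 0 with only the arrays compared and 0 within the array set of 8. Leaving out 1 array gave 2 to 6. Both counts of 6 came without MerCreMer 4 tamoxifen replicate 2. In the other 4 comparisons 0 members were called under every alternative run, and leaving out the MerCreMer 4 tamoxifen arrays from those fits changed none of these counts but raised the genes called between control-injected genotypes from 77 to 687.

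Asph lost its genotype interaction without any 1 MerCreMer 4 control replicate, MerCreMer 4 tamoxifen replicate 3 or wild-type tamoxifen replicate 2 or 3 (adjusted p up to 0.0856). Jph1 lost its own without any 1 MerCreMer 4 control replicate, MerCreMer 4 tamoxifen replicate 3, wild-type control replicates 2 to 6 or wild-type tamoxifen replicate 1 or 3 (up to 0.137). Asph lost the interaction with injection days in 9 of 12 such fits, each except those without MerCreMer 1 control replicate 1 or MerCreMer 4 tamoxifen replicate 1 or 2 (up to 0.100). Jph2 lost its call after 4 injections without MerCreMer 4 tamoxifen replicate 1 (-0.28, adjusted p = 0.0595). Of 1240 values of single members under an alternative, 0 called values changed sign, 66 lost a call and 11 gained one.

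Equal replicate numbers were not taken as pairing the arrays, since the labels name no pairs. Correlations of same-numbered arrays cannot decide this, because they use deviations from the means of groups with few arrays. The correlations were 0.112, -0.0366 and 0.0543 after 4 injections in MerCreMer mice. After 1 injection they were 0.277, 0.0696 and 0.249, each above any between unequal numbers (up to 0.0394). Replicate 1 was male in every group and sex was not removed, so these correlations may hold part of a sex difference. With the replicate block in place of sex, 5 members were called after 4 injections, among 1888 genes, and 0 after 1. The number of arrays limits all of these values.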
